A study of Mus musculus with 12 samples.

Results

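The intrinsic, or mitochondrial, pathway of apoptosis was followed in the mouse retina through 9 of its regulators, Bax, Bak1, Bcl2, Bcl2l1, Bcl2l2, Bcl2l11, Bbc3, Hrk and Casp9. The genes were chosen by name, with earlier results of these data known. All 9 were found among the 54532 gene identifiers of the count and FPKM tables, of which 34538 had a count in at least 1 of the 12 libraries. All 9 passed the filter on low counts and were among the 18299 genes tested. Retinal RNA had been sequenced from wild type C57BL/6 mice of 13 weeks, with 3 libraries in each of 4 groups. SHAM mice were the sham control, and what the sham procedure consisted of is not given in the sources used here. MOG mice had been immunized with the MOG35-55 peptide of myelin oligodendrocyte glycoprotein, which per the study's methods was given in complete Freund's adjuvant and followed by pertussis toxin, to induce experimental autoimmune encephalomyelitis (EAE) with optic neuritis (ON). GB20 and GV16 mice had received the same immunization and were then needled under xylazine and ketamine anesthesia, at the GB20 acupoint or at the control acupoint GV16. Per the study's methods, needling began weeks after the immunization and was repeated until the retinas were taken. Retinas came from 1 time after immunization, and other times were not sampled. Anesthesia is described only for the needled groups, so needling cannot be told apart from anesthesia in their comparison with MOG. The immunization acts on the whole animal. The study's methods speak of a few female mice per group, of experiments repeated 3 times and of 3 biological replicates. They do not say how many mice a library holds. The spread between libraries is therefore the spread between these samples, part of which may be technical.

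The intrinsic pathway is decided at the outer membrane of mitochondria. Guardians such as BCL-2, BCL-XL (from Bcl2l1) and BCL-W (from Bcl2l2) hold the effectors BAX and BAK (from Bak1) in check, while BH3-only proteins such as BIM (from Bcl2l11), PUMA (from Bbc3) and Harakiri (from Hrk) bind guardians and release or activate the effectors. Once the membrane is opened, cytochrome c leaves the mitochondria and joins APAF1 in the apoptosome, where caspase-9 (from Casp9) is activated. In the retina this pathway is best known from retinal ganglion cells (RGC), the neurons whose axons form the optic nerve, whose death after injury of the nerve depends on BAX. Much of its control acts on the proteins, which RNA does not show.

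The feature that joins 8 of the 9 genes is the BH3 domain, a short helix through which the family members bind each other. The 42 bases that code for its core are shown here for each of the 8, since they are what the guardians, effectors and BH3-only genes share. They were read from the coding sequence of 1 GENCODE vM21 transcript per gene, 5′ to 3′ on the coding strand, and the capitals mark the codons of the conserved leucine (methionine in Bcl2l2) and of the conserved aspartate.
Bcl2: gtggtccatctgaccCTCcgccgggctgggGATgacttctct
Bcl2l1: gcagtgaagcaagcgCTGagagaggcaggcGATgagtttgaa
Bcl2l2: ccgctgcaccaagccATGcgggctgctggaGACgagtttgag
Bax: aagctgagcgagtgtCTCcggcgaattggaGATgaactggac
Bak1: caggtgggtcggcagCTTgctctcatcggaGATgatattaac
Bcl2l11: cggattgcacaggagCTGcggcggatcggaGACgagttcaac
Bbc3: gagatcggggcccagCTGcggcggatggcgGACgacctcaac
Hrk: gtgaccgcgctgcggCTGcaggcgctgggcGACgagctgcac
The leucine codon was CTG in Bcl2l1 and in the 3 BH3-only genes, CTC in Bcl2 and Bax, and CTT in Bak1. Casp9 codes for a protease, and 0 matches to the BH3 pattern were found in its coding sequence. On GRCm38, the build that mm10 also denotes, the stretches lay at chr1:106712575-106712616 for Bcl2, chr2:152829697-152829738 for Bcl2l1, chr14:54884502-54884543 for Bcl2l2, chr7:45465997-45466038 for Bax, chr17:27022531-27022572 for Bak1, chr2:128147135-128147176 for Bcl2l11, chr7:16313758-16313799 for Bbc3 and chr5:118169876-118169917 for Hrk. Each stretch fell within 1 coding exon, the first of the transcript in Bcl2 and Hrk, exon 2 in Bcl2l1, exon 3 in Bcl2l2, Bax, Bcl2l11 and Bbc3, and exon 4 in Bak1.

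Between 15860278 and 19194280 counts per library had been assigned to genes, and no 2 libraries were copies of each other. SHAM replicate 2 stood apart from its group. The mean chi-square per gene between its counts and those of SHAM replicates 1 and 3 was 11.79 and 16.46. Other pairs within a group had 3.03 to 6.9. The tissue label held, and genes of rods, the main photoreceptor, summed to between 61100 and 67900 CPM in every library. CPM values are counts relative to the library size, as scaled by edgeR's TMM method. RGC markers summed to 1150 to 1300 CPM in SHAM libraries, and lower in the immunized mice, to 686 to 814 CPM for MOG, 817 to 831 CPM for GB20 and 658 to 905 CPM for GV16. In bulk retina, fewer ganglion cells and less RNA per ganglion cell cannot be told apart. Markers of microglia and macrophages summed to 26.0 to 35.2 CPM in SHAM and 40.6 to 53.5 CPM over the 9 libraries of immunized mice, and those of pigment epithelium and choroid to 19.9 to 27.8 CPM in SHAM, 36.5 to 51.1 CPM in MOG, 39.0 to 45.9 CPM in GB20 and 23.3 to 62.7 CPM in GV16, where they overlapped SHAM. T cell markers summed to at most 3.41 CPM in any library, and lens markers reached 18 CPM in 1 SHAM library. The part of these shifts in the values below was not tested.

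The levels of the 9 genes per gene length were spread widely, and their order was nearly the same in all libraries. Bcl2l2, the guardian BCL-W, was the highest, with a mean of 33.5 FPKM (a count scaled by library size and gene length) over the 12 libraries, above 93.2% of the genes tested. Bax and Bcl2l1 followed at 14.6 and 13.7 FPKM. Casp9 stood at 6.28 FPKM, Bak1 at 4.20, Bcl2 at 3.08, Bcl2l11 at 3.04 and Bbc3 at 2.15. Hrk was the lowest at 0.507 FPKM, above 13.0% of the genes tested. Of the neighbours in this order, Bax exceeded Bcl2l1 in 10 of 12 libraries, Bcl2 exceeded Bcl2l11 in 5 of 12 and Bcl2l11 exceeded Bbc3 in 11 of 12, while the other steps held in 12 of 12. Bcl2 and Bcl2l11, and likewise Bax and Bcl2l1, were therefore not separated beyond their spread. Among the guardians the retina thus held Bcl2l2 above Bcl2l1 above Bcl2 in each of the 12 libraries.

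**Figure D1:**
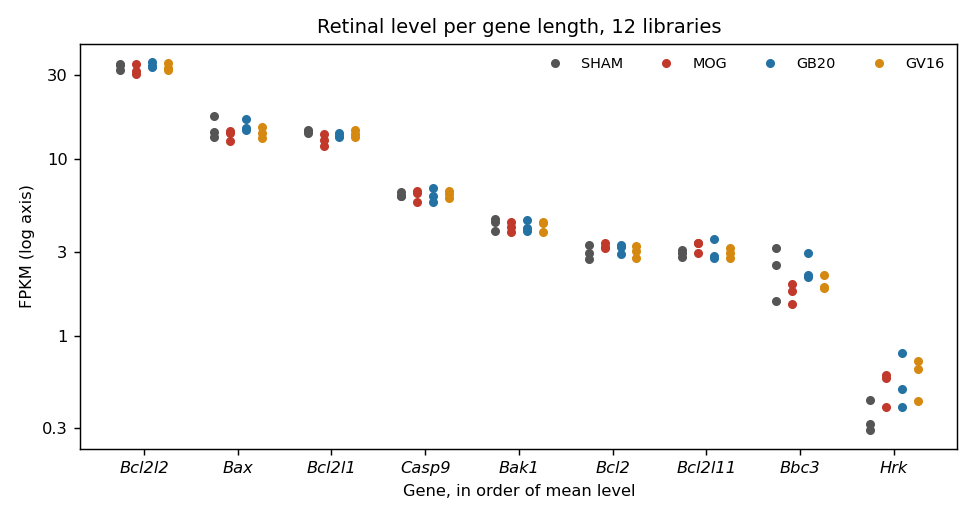
Level of the 9 genes per gene length (FPKM, log axis) in each of the 12 libraries, with genes ordered by their mean and points coloured by group. Bcl2l2 sits between 30.7 and 35.5 FPKM, Hrk stays under 1 FPKM, and within a gene the groups lie close together compared with the steps between genes.

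To see whether immunization with EAE and ON moved the pathway at the RNA level, MOG was compared with SHAM. As the sham procedure is not given, ON cannot be told apart here from adjuvant, toxin or EAE elsewhere in the animal. None of the 9 regulators was called as changed. With edgeR's quasi-likelihood test over all 12 libraries, 0 of 9 had a Benjamini-Hochberg adjusted p under 0.05, against 1.34% of all genes tested (245 genes, 104 higher and 141 lower in MOG), and at that share a count of 0 among 9 genes is no result about them. At an unadjusted p under 0.05, 3 of 9 were counted (Hrk, Bbc3 and Bcl2l1), against 13% of all genes. DESeq2 on the 6 libraries called 0 of 9 against 236 of 17268 genes, with 0 of 9 at an unadjusted p under 0.05 against 1561 genes. On all 12 libraries it called 0 against 322 of 16456, with 1 of 9 before adjustment against 2256 genes. Limma on log2(FPKM + 1) called 0 against 71 of 23204, with 1 of 9 before adjustment against 2435 genes. At such shares 0 of 9 is again no result. The fitted log2 fold changes of the 9 genes ran from -0.45 to 0.59 with a median of -0.05, and the median size of the change was 0.13 on the log2 scale against 0.13 over all genes. For 7 of 9 genes the 95% interval of the change lay within 1.5-fold in either direction, and for 8 of 9 within 2-fold. With the spread seen here, a change of 1.21-fold would have been called for Bcl2l2 and one of 2.14-fold for Hrk, the most and the least precisely measured of the 9.

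**Figure D2:**
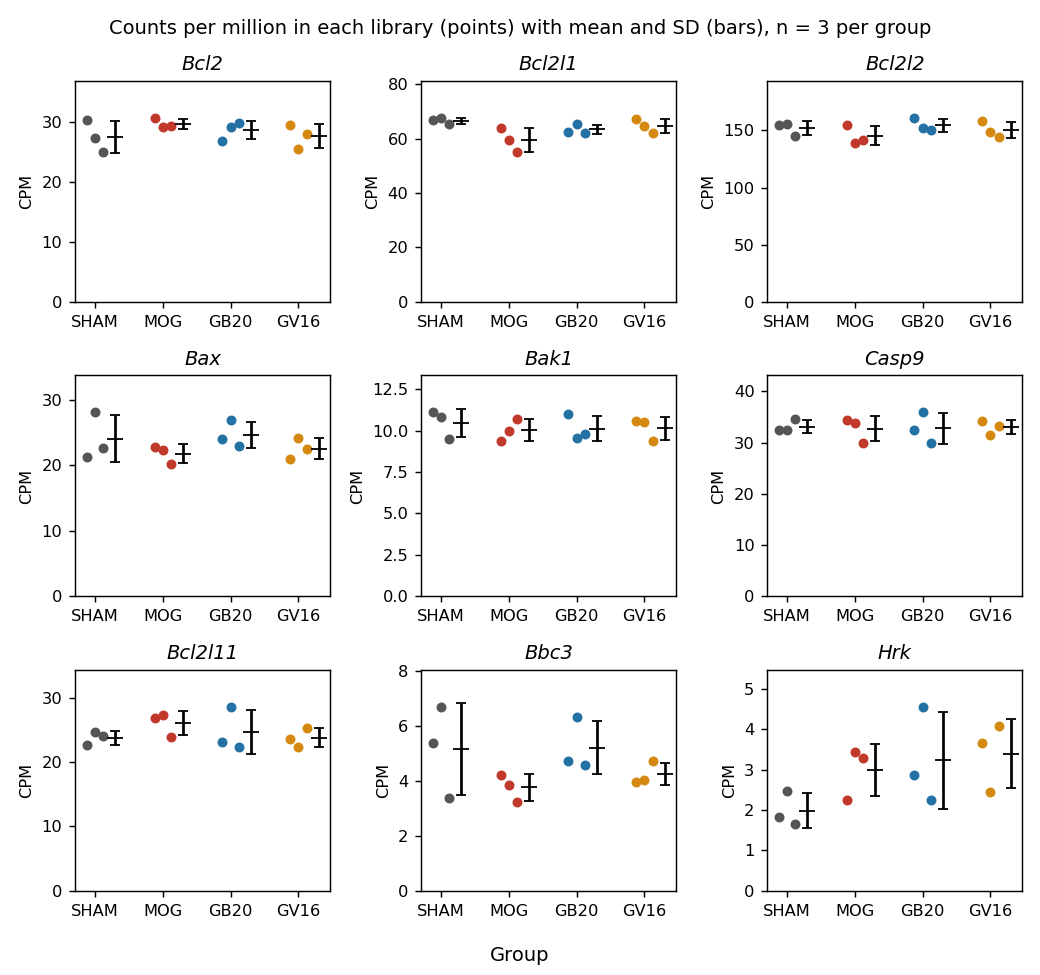
CPM (counts relative to the scaled library size) of each gene in each library (points, in order of replicate number) by group, with the mean and SD of the 3 libraries as bars; each axis starts at 0 and has its own range. Bcl2l1 is the only gene of the 9 whose MOG points, 55.1 to 63.7 CPM, all lie below its SHAM points, 65.4 to 67.6 CPM.

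**Figure D3:**
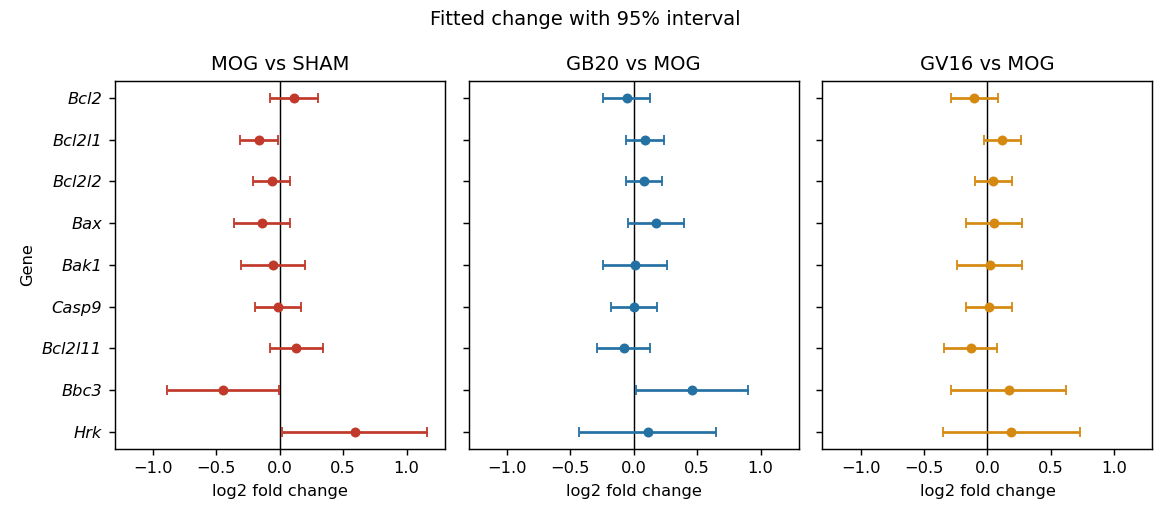
Fitted log2 fold change (horizontal axis) with its 95% interval for each gene (vertical axis) for MOG against SHAM (left), GB20 against MOG (middle) and GV16 against MOG (right). Intervals are widest for Hrk and Bbc3, the genes with the fewest counts, and those of Hrk, Bbc3 and Bcl2l1 in MOG vs. SHAM and of Bbc3 in GB20 vs. MOG leave out 0 before any adjustment.

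Guardians came first in this comparison. Bcl2l1 (ENSMUSG00000007659, chr2:152780668-152831728, minus strand), the source of BCL-XL, which keeps many mature neurons alive, measured 66.8, 67.6 and 65.4 CPM in SHAM and 63.7, 59.6 and 55.1 CPM in MOG. The 2 groups did not overlap, as was so for 1 of the 9 genes here and for 16.2% of all genes tested. The log2 fold change was -0.16 ± 0.071 (SE) with a 95% interval of -0.31 to -0.02 and an adjusted p of 0.325. Leaving out MOG replicate 3, the lowest library, brought it to -0.11. Needled mice measured 62.5, 65.3 and 62.2 CPM in GB20 and 67.1, 64.7 and 61.9 CPM in GV16, and both groups overlapped MOG.

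Bcl2l2 (ENSMUSG00000089682, chr14:54883377-54888234, plus strand) had the narrowest spread of the 9, with 155, 156 and 145 CPM in SHAM and 155, 139 and 142 CPM in MOG. Its groups overlapped, and its log2 fold change of -0.06 ± 0.069 had an interval of -0.21 to 0.08. Of its exonic bases, 13.3% are shared with a read-through gene on the same strand that was listed at 0 in every library. Bcl2 (ENSMUSG00000057329, chr1:106538178-106714274, minus strand), the founding guardian, measured 30.3, 27.3 and 25.0 CPM in SHAM and 30.7, 29.2 and 29.3 CPM in MOG. The lowest MOG value lay inside the SHAM range, and the log2 fold change was 0.11 ± 0.090 with an adjusted p of 0.632.

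The effectors overlapped between SHAM and MOG as well. Bax (ENSMUSG00000003873, chr7:45461697-45466898, minus strand), the effector that ganglion cell death after nerve injury depends on, measured 21.3, 28.1 and 22.7 CPM in SHAM and 22.8, 22.4 and 20.2 CPM in MOG. SHAM replicate 2 stood above the other 5 libraries, and the log2 fold change of -0.14 ± 0.11 became -0.01 without it. Of the exonic bases of Bax, 12.2% are shared with Gm45808 on the same strand, which had 0 to 2 counts. Bak1 (ENSMUSG00000057789, chr17:27019810-27029009, minus strand), the second effector, had 183, 183 and 171 counts in SHAM and 168, 163 and 179 in MOG, or 9.49 to 11.1 CPM and 9.40 to 10.7 CPM, with a log2 fold change of -0.05 ± 0.12. Of its exonic bases, 25.5% overlap Ggnbp1 on the other strand, which had 68 to 105 counts, and the library kit named in the labels does not mark strand by default, so reads of the shared part cannot be assigned to one gene with certainty. Casp9 (ENSMUSG00000028914, chr4:141793612-141815976, plus strand), the initiator caspase of the apoptosome, measured 32.4, 32.4 and 34.5 CPM in SHAM and 34.4, 33.8 and 30.0 CPM in MOG. Its log2 fold change was the smallest of the 9, -0.02 ± 0.087, with an interval of -0.20 to 0.16.

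The BH3-only genes, which carry the death signal to the mitochondria, came last, and Hrk and Bbc3 had the lowest counts and the widest spread of the 9. Hrk (ENSMUSG00000046607, chr5:118164648-118189478, plus strand), a BH3-only gene of neurons, had 30, 42 and 30 counts in SHAM and 40, 56 and 55 counts in MOG, or 1.82, 2.47 and 1.66 CPM against 2.24, 3.44 and 3.30 CPM. The lowest MOG library lay under the highest SHAM library. The log2 fold change was 0.59 ± 0.28, the largest of the 9, with an interval of 0.01 to 1.16 and an adjusted p of 0.368. It ran from 0.47 to 0.78 when single libraries were left out.

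Bbc3 (ENSMUSG00000002083, chr7:16308393-16318205, plus strand), the source of PUMA, a target of p53, had 89, 114 and 61 counts in SHAM and 75, 63 and 54 counts in MOG, or 5.39, 6.70 and 3.38 CPM against 4.20, 3.87 and 3.24 CPM. SHAM replicate 3 lay inside the MOG range while the other 2 SHAM libraries lay above it. The log2 fold change was -0.45 ± 0.21 with an adjusted p of 0.376, and it depended on the SHAM libraries, with -0.20 without replicate 2 and -0.68 (adjusted p = 0.0687) without replicate 3. The latter was the lowest adjusted p of any of the 9 genes under any setting. Bcl2l11 (ENSMUSG00000027381, chr2:128126038-128162547, plus strand), the source of BIM, measured 22.6, 24.7 and 24.0 CPM in SHAM and 26.9, 27.3 and 23.9 CPM in MOG. MOG replicate 3 lay among the SHAM libraries, and the log2 fold change was 0.13 ± 0.10 with an adjusted p of 0.609.

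Gene length moved with these values. The longer a gene, the higher its MOG vs. SHAM value tended to be, with a Spearman correlation of 0.39 over 11152 genes. The lengths used here were derived from the deposited counts and FPKM values. The 3 genes with a positive value, Bcl2 (9213 bases), Bcl2l11 (8078) and Hrk (5712), were the longest of the 9, and the shortest, Bax (1586), Bbc3 (2137) and Bak1 (2422), had negative ones. After per-library offsets that remove the length trend, Bax moved from -0.14 to -0.05, Bbc3 from -0.45 to -0.36, Bcl2 from 0.11 to 0.06, Bcl2l11 from 0.13 to 0.10 and Bcl2l1 from -0.16 to -0.14, while Hrk stayed at 0.59. Again 0 of 9 genes were called.

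The comparison of GB20 with MOG asked whether needling at the acupoint shifted the same genes. None of the 9 was called, with 0 of 9 at an adjusted p under 0.05 against 0.24% of all genes tested (44 genes), a share at which 0 of 9 says little about them. At an unadjusted p under 0.05, 1 of 9 was counted against 8% of all genes. DESeq2 called 0 of 9 on the 6 and on all 12 libraries, against 119 of 14878 and 50 of 17126 genes. Limma called 0 against 8 of 23204. Before adjustment, 0 of 9 were counted in these fits, against 1418, 1267 and 1635 genes. The median log2 fold change of the 9 was 0.08, and all 9 intervals lay within 2-fold in either direction. Because both comparisons share the MOG libraries, values of opposite sign in them are not independent.

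Bbc3 had the largest value, with 4.74, 6.32 and 4.57 CPM in GB20 against 4.20, 3.87 and 3.24 CPM in MOG. All 3 GB20 libraries lay above all 3 MOG libraries, which held for 2 of the 9 genes and, in either direction, for 15.7% of all genes. The log2 fold change was 0.46 ± 0.21 with an interval of 0.02 to 0.90 and an adjusted p of 0.601, where a change of 1.98-fold would have been called, and it was 0.30 without GB20 replicate 2. The other gene without overlap was Bax, with 24.0, 26.9 and 23.0 CPM in GB20 against at most 22.8 CPM in MOG, and a log2 fold change of 0.18 ± 0.11 (adjusted p = 0.690). Length offsets brought these values to 0.40 for Bbc3 and 0.10 for Bax, and the log2 fold changes of all genes had a correlation of -0.407 with gene length here.

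Of the other 7 genes, Bcl2l1 had a log2 fold change of 0.09, Bcl2l2 of 0.08, Bak1 of 0.01, Casp9 of 0.00, Bcl2 of -0.05 and Bcl2l11 of -0.08 in GB20 vs. MOG. Hrk measured 2.88, 4.56 and 2.25 CPM in GB20, overlapping the MOG libraries, and its log2 fold change of 0.11 became -0.21 without GB20 replicate 2. The same library was the highest of its group for Bax, Bcl2l1, Bcl2l11, Bbc3, Hrk and Casp9. Under the replicate number as a block, 0 of 9 genes were called as well.

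Needling at GV16, the control acupoint, gave no call among the 9 genes either. In GV16 vs. MOG, 0 of 9 passed against 0.164% of all genes tested (30 genes), and 0 of 9 had an unadjusted p under 0.05 against 5.3% of all genes. DESeq2 on 6 libraries, DESeq2 on all 12 and limma gave 0 of 9 by either threshold. Over all genes they called 57, 41 and 6, and counted 874, 827 and 1305 before adjustment. The libraries of both groups overlapped for all 9, against 12.6% of all genes without overlap. The largest values were 0.19 ± 0.26 for Hrk, 0.17 ± 0.22 for Bbc3, -0.13 ± 0.10 for Bcl2l11 and 0.12 ± 0.072 for Bcl2l1. In GB20 vs. GV16, which compares the 2 needling sites directly, 0 of 9 passed against 0.00546% of all genes (1 gene). At an unadjusted p under 0.05, 0 of 9 were counted against 2.93% of all genes. The same DESeq2 and limma fits also gave 0 by either threshold. Over all genes they called 4, 5 and 2, and counted 386, 421 and 846 before adjustment. Here too 0 of 9 were free of overlap, against 8.34% of all genes. Bbc3 had the largest value there, 0.29 ± 0.21 with an interval of -0.14 to 0.73 (0.13 without GB20 replicate 2), and all 9 intervals lay within 2-fold. At the p of the 1 gene called between the needled groups, a change of 1.40-fold in Bcl2l2 or of 3.56-fold in Hrk would have been called. Somewhat smaller changes could pass too, but only large differences of Hrk were detectable.

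Needled mice were also set against SHAM. In GB20 vs. SHAM 0 of 9 passed against 0.344% of all genes tested (63 genes), and in GV16 vs. SHAM 0 of 9 against 0.656% (120 genes). Blocking by replicate number raised the numbers over all genes to 182 and 236 and left 0 of 9. A pairing of these libraries by number rests on correlations alone and is not established, and the numbers did not pair GB20 with GV16. At an unadjusted p under 0.05, Hrk alone was counted in each, against 9.06% and 10.9% of all genes. DESeq2 called 0 of 9 in both and also counted 1 of the 9 in each before adjustment, and limma called 0 and counted 0. Over all genes, DESeq2 on 6 libraries called 121 and 126 and counted 973 and 1259 before adjustment. On all 12 libraries it called 147 and 202 and counted 1483 and 1891. Limma called 6 and 9 and counted 1796 and 2215. Hrk measured 3.66, 2.44 and 4.09 CPM in GV16, with a log2 fold change from SHAM of 0.78 ± 0.28 (adjusted p = 0.258) and an interval of 0.21 to 1.35. In GB20 vs. SHAM its log2 fold change was 0.70 ± 0.28 (adjusted p = 0.412), and 0.38 without GB20 replicate 2. The SHAM libraries are shared by the 3 comparisons, and in each of the immunized groups the lowest Hrk value lay under the highest SHAM value of 2.47 CPM. When the 4 groups were tested together, Hrk had the lowest p of the 9, 0.0450 with an adjusted p of 0.478, and 0 of 9 genes were called against 1.1% of all genes tested. It was the only one of the 9 with an unadjusted p under 0.05, against 10.1% of all genes. Bcl2l1 in GB20 lay wholly below SHAM, though by only -0.07 ± 0.071 on the log2 scale. This made 1 of 9 genes without overlap in GB20 vs. SHAM against 12.7% of all genes, and 0 of 9 in GV16 vs. SHAM against 14.5%.

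Ratios within a library do not depend on how libraries are scaled, and they set a promoter of death against a guardian. SHAM libraries had a Bax to Bcl2 ratio of 4.08, 5.99 and 5.27 in FPKM, and MOG libraries one of 4.32, 4.46 and 4.0. For GB20 the ratio was 5.19, 5.36 and 4.47, and for GV16 it was 4.15, 5.52 and 4.67. The groups overlapped, and SHAM replicate 1 was as low as the MOG libraries. Mean log2 ratios were 2.34 ± 0.28 (SD, n = 3) for SHAM, 2.09 ± 0.081 for MOG, 2.32 ± 0.14 for GB20 and 2.25 ± 0.21 for GV16. The ratio of Bcl2l11 to Bcl2l1 was 0.193, 0.209 and 0.210 in SHAM and 0.241, 0.261 and 0.248 in MOG, so that all MOG libraries lay above all SHAM libraries. Of single genes, 16.2% of all tested were without overlap in MOG vs. SHAM. The share among ratios of other gene pairs was not computed, so this separation is no result about the 2 genes. Mean log2 ratios were -2.29 ± 0.065 for SHAM, -2.0 ± 0.059 for MOG, -2.18 ± 0.16 for GB20 and -2.25 ± 0.13 for GV16. In GB20 replicate 2, at 0.250, and by a small margin replicate 1, at 0.211, lay above the SHAM range, and in GV16 replicate 3, at 0.234. Bcl2l11 is the longer gene of this pair and Bax the shorter of the other, and the length trend described above has the direction of both ratios. With length offsets, the MOG vs. SHAM values were 0.097 for Bcl2l11 and -0.14 for Bcl2l1, from 0.130 and -0.163. Those of Bax and Bcl2 were -0.053 and 0.065, from -0.141 and 0.111. The part of gene length in the ratios was not tested. The 2 ratios are a description with no test, because their genes were chosen with results known.

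**Figure D4:**
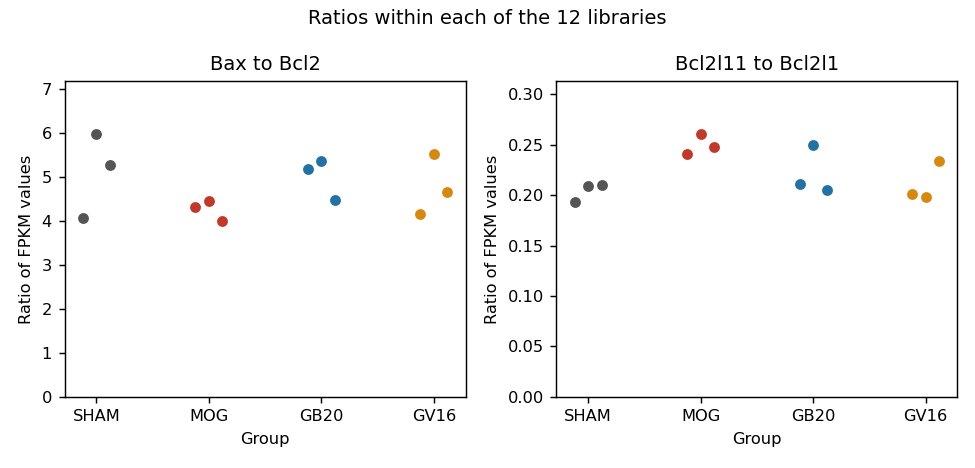
Ratio of the FPKM values of Bax to Bcl2 (left) and of Bcl2l11 to Bcl2l1 (right) within each of the 12 libraries, by group, with axes that start at 0. The Bax to Bcl2 points of the 4 groups overlap, while the Bcl2l11 to Bcl2l1 points of MOG, 0.241 to 0.261, lie above those of SHAM, 0.193 to 0.210. The share of other gene pairs without overlap was not computed.

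Other genes of the apoptotic machinery are given by list, and the counts stand against 1.34% of all genes called in MOG vs. SHAM and 13% at an unadjusted p under 0.05, so that counts near 0 are no result about these lists. Of 16 other BCL-2 family genes 11 were tested and 0 passed in any comparison by edgeR, DESeq2 or limma (1 at an unadjusted p under 0.05 in MOG vs. SHAM), with a median log2 fold change of 0.00 in MOG vs. SHAM. Bok, a BAX-like family member, had the lowest p among them over the 4 groups, with 7.11 ± 0.71 CPM in MOG and 9.11 ± 0.69 in SHAM (SD), which differed by -0.36 ± 0.14 on the log2 scale (adjusted p = 0.279). The guardian Mcl1 stood at 0.08 ± 0.072, and the BH3-only genes Bid, Bmf, Bad and Pmaip1 at 0.17, 0.00, -0.07 and -0.04. Downstream, 0 of 6 tested apoptosome and caspase genes passed by the 3 tools, and 0 had an unadjusted p under 0.05 in MOG vs. SHAM. Apaf1, the scaffold of the apoptosome, had a log2 fold change of 0.11 ± 0.11 in MOG vs. SHAM, and Cycs, which codes for cytochrome c, one of -0.15 ± 0.095.

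Of 7 tested IAP genes and antagonists, which restrain caspases or release them, 0 passed by any of the 3 tools, with 0 before adjustment in MOG vs. SHAM, and Birc6 had the lowest p with 0.23 ± 0.13 in MOG vs. SHAM. Likewise 0 of 12 genes of the mitochondrial pore and its dynamics passed by these tools, with 2 before adjustment, where Vdac1, a channel of the outer membrane, had -0.18 ± 0.077 (adjusted p = 0.320). Upstream, 0 of 11 tested genes of p53 and its targets passed by the 3 tools, with 2 before adjustment in MOG vs. SHAM. Cdkn1a, the cell cycle inhibitor p21 and a p53 target like Bbc3, measured 4.05 ± 0.26 CPM in SHAM and 6.19 ± 0.94 in MOG, with a log2 fold change of 0.61 ± 0.22 (adjusted p = 0.219) while that of Bbc3 was -0.45. In GV16 vs. SHAM Cdkn1a stood at 0.76 ± 0.22 with an adjusted p of 0.127, and with the replicate block at 0.75 with an adjusted p of 0.0385, which passes. It passed under 4 of 23 alternatives, namely the block, the block with gene length offsets, no low-count filter, and without GB20 replicate 2, and its adjusted p ran from 0.0047 to 0.519. Of the 16 genes of the DLK and JNK stress arm, which links axon injury to Bbc3, Bcl2l11 and Hrk, 0 passed by the 3 tools, with 0 before adjustment in MOG vs. SHAM. Foxo1 had the lowest p there, with -0.31 ± 0.093 in GB20 vs. MOG (adjusted p = 0.324).

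Among 8 tested genes of the death receptor arm, which reaches caspases without mitochondria, 1 was called higher in MOG than in SHAM. Of all genes, 1.34% were called there. At an unadjusted p under 0.05, 2 of the 8 were counted, against 13% of all genes. Tnfrsf1a, the receptor of tumor necrosis factor, measured 5.78 ± 0.78 CPM in SHAM and 9.40 ± 0.29 CPM in MOG. Its log2 fold change of 0.70 ± 0.16 had an adjusted p of 0.0290. The call did not hold in every setting, with 15 of 23 alternatives passing, log2 fold changes between 0.52 and 0.77 and adjusted p values up to 0.234. The call was lost with limma, on log2(FPKM + 1) with or without a filter and on log2(FPKM + 0.1). It was also lost without any one of SHAM replicates 1 and 3 (0.76 and 0.59) and of the 3 MOG libraries (0.72, 0.68 and 0.71). Tnfrsf1a is widely expressed, also by glia and macrophages. Of 12 markers of microglia and macrophages 2 rose in the same comparison, Csf1r at 0.59 ± 0.14 and C1qa at 0.99 ± 0.24, with a median of 0.46 over the list. Of 10 markers of Muller cells, the main glia of the retina, 2 rose, Gfap at 1.25 ± 0.17 and Aqp4 at 0.46 ± 0.071, while the median was 0.04, Glul had -0.26 ± 0.077 (adjusted p = 0.117), and their sum was 4010 to 4280 CPM in SHAM and 3750 to 4150 CPM in MOG. The part of these markers in the value of Tnfrsf1a was not tested. In GB20 vs. SHAM it stood at 0.57 ± 0.16 (adjusted p = 0.162) and in GV16 vs. SHAM at 0.41 ± 0.17 (adjusted p = 0.343). Against MOG it stood at -0.14 ± 0.16 in GB20 (adjusted p = 0.856) and -0.29 ± 0.16 in GV16 (adjusted p = 0.989).

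**Figure D5:**
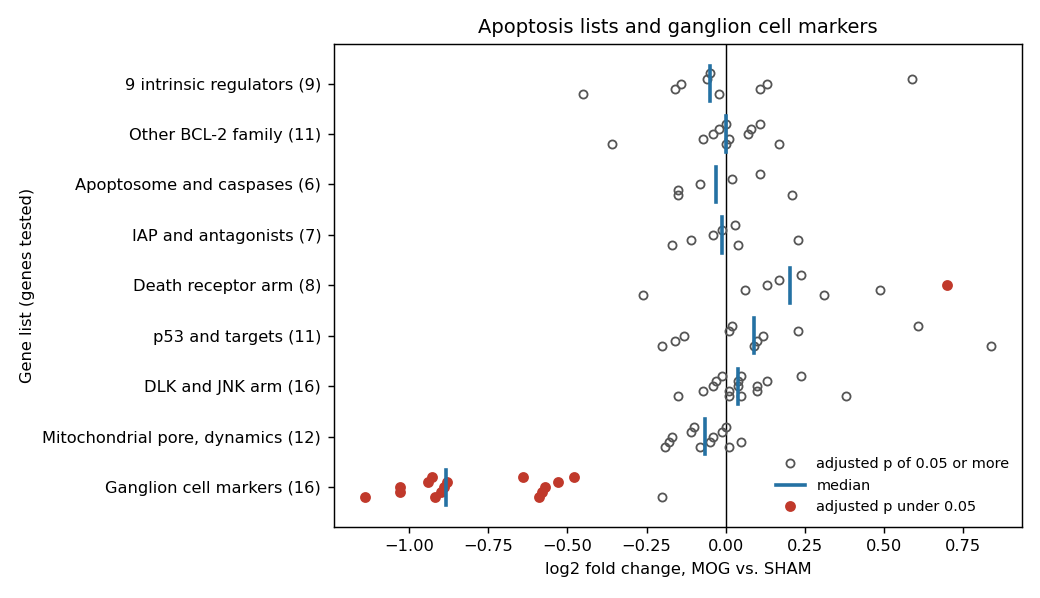
Log2 fold change of MOG vs. SHAM (horizontal axis) for each tested gene of the apoptosis lists and of the RGC markers (vertical axis, number of genes tested in brackets), with filled red points for an adjusted p under 0.05, open points for the rest and a blue bar at the median. The 9 regulators spread around 0 with a median of -0.05, 1 red point stands in the death receptor arm, and 15 of 16 RGC markers are red and left of 0.

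The scale of these values can be read against the RGC markers of the same libraries. Of 16 markers, 15 fell in MOG vs. SHAM, with a median log2 fold change of -0.89, among them the neurofilament gene Nefl from 280 to 146 CPM and the transcription factor Pou4f1 from 32.9 to 16.1 CPM. The median of the 9 apoptosis regulators in that comparison was -0.05, and only the interval of Bbc3, from -0.89 to -0.01 on the log2 scale, reached down to the median of the markers. Whether the 9 genes changed within ganglion cells alone is not resolved by whole retina, where these cells are a small share.

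For each of the 9 genes, the gene outside the set whose CPM followed it most closely over the 12 libraries was sought among 10590 genes with a mean of at least 10 CPM. Pearson correlations of log2 CPM were 0.95 for Bax with H2afx, which codes for a histone H2A variant, 0.93 for Bbc3 with Trmt112 and for Bcl2l2 with Med19, 0.92 for Bcl2l1 with Camk2n1 and 0.90 for Bcl2l11 with Mafg. Those of the other genes were 0.88 for Bcl2 with Dhx8, 0.87 for Casp9 with Hsdl1, 0.86 for Bak1 with Mettl13 and 0.86 for Hrk with Rfx2. Each is the highest of 10590 values over 12 libraries that share depth and length trends, and is given as a description only.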

How the data were processed

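Polyadenylated RNA of mouse retina was sequenced in paired ends. HISAT2 2.0.5 (mm10) and FeatureCounts were the authors' aligner and counter, and the deposited counts are whole numbers with no normalization. The authors computed the deposited FPKM values from these counts and the gene length. The sources used here do not name the annotation release, the strand setting or what was done with multiply aligned reads. Groups and replicate numbers came from the sample labels. Symbols, coordinates and coding exons came from GENCODE vM21 on GRCm38, which held 54409 of 54532 identifiers.

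For tests on counts, edgeR 4.0.16 was run under R 4.3.3 (expression filter with 4 groups, TMM scaling, robust quasi-likelihood, 2-sided), with all 12 libraries in 1 fit, 8 residual degrees of freedom and Benjamini-Hochberg adjustment over 18299 genes, at an adjusted p under 0.05. The study used DESeq2, here an alternative (1.42.0), as was limma 3.58.1 on log2(FPKM + 1). The fits were checked on simulated counts. The change given as one that would have been called was computed from a gene's SE and the largest p called. It is an upper limit, since a somewhat larger p could also pass the adjustment. Figures were drawn with matplotlib 3.10.9 in Python 3.11.15. The 9 genes and all gene lists were chosen with earlier results of these data known. Of each other list, the text names every gene called in a comparison or, with none, the gene with the lowest p over the 4 groups; of ganglion cell markers and of marker lists, examples are given, and further genes of the BCL-2 family and apoptosome were named after their values were seen. Counts per library of 15860278 to 19194280 leave Hrk with 30 to 75 counts and Bcl2l2 with 2256 to 3116.

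The labels do not say what the replicate numbers mark. Deviations from the group means correlated between libraries of the same number in SHAM and GB20 (r of 0.211 to 0.518) and in SHAM and GV16 (0.222 to 0.281), for every pair, so the numbers may pair these libraries. In the other 4 pairs of groups this did not hold for every pair. Among them were GB20 and GV16 (-0.174 to 0.078), which should also pair if both paired with SHAM. The pairing is therefore not established. The main fit used no block, and the block fit applied the replicate numbers to all 12 libraries.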

Additional observations from a re-analysis of the deposited data

How the results depend on the processing

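Under 23 alternatives, 11 of processing and 12 that left out 1 library each, 0 of 9 genes were called in any comparison. The alternatives were DESeq2 on 6 or 12 libraries, edgeR on 6 libraries, no low-count filter, DESeq2 size factors, limma on log2(FPKM + 1), log2(FPKM + 0.1) or without a filter, the replicate block, length offsets, and length offsets with the block. The lowest adjusted p was 0.0687. Of 1242 fits of a gene and comparison, 77 had the other sign than in the report, all where the reported log2 value was at most 0.112 in size. The replicate block left 0 of 9 calls and changed no call of these genes; over all genes it moved the number from 245 to 404 in MOG vs. SHAM, 44 to 73 in GB20 vs. MOG, 30 to 47 in GV16 vs. MOG and 1 to 1 in GB20 vs. GV16, where the numbers did not pair the libraries (3, 2, 3 and 2 of 6 libraries correlated best with their own number).

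Numbers over all genes, the background of each count, varied more. For MOG vs. SHAM, then GB20 and GV16 each against MOG, GB20 against GV16, and GB20 and GV16 each against SHAM, they were 539, 140, 73, 8, 282 and 395 without a filter, 71, 8, 6, 2, 6 and 9 with limma on log2(FPKM + 1), and 236, 119, 57, 4, 121 and 126 with DESeq2 on 6 libraries. With 1 library left out they ran from 91 (without MOG replicate 3) to 427 (without SHAM replicate 3), 13 to 83, 10 to 38, 0 to 4, 14 to 116 and 23 to 231. The number of RGC markers that fell in MOG vs. SHAM ran from 6 to 15, lowest with limma. Applying the same alternatives to this number, to Tnfrsf1a and to Cdkn1a was decided after seeing the data. As counts rather than FPKM, the log2 ratio of Bax to Bcl2 was -0.20, -0.45, -0.22 and -0.29 in SHAM, MOG, GB20 and GV16, and that of Bcl2l11 to Bcl2l1 -1.49, -1.19, -1.37 and -1.44, a constant shift set by gene length. Depth limits Hrk and Bbc3 most.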
